A study of Homo sapiens with 2 samples.

Results

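Of the 1920 peaks called in the eIF4A1 library, 39 were listed under a microRNA gene, and these 39 peaks, under 37 microRNA names, are described here. They were chosen by name alone: the gene ID of the annotated table had to belong to a gene whose symbol is MIR followed by a digit or by LET, host transcripts with the ending HG were left out, and so were peaks called distal intergenic. They made up 2.11% of the 1844 annotated peaks not called distal intergenic. The label of the set holds only as a list of names. The summit of none of the 39 peaks lay inside the microRNA gene it was named after, and 37 of the 39 summits lay inside another gene, so peaks are given below with the gene that holds them.

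The material was DU145, an established cell line from human prostate cancer. Cytoplasmic extract was cleared with beads, 1 portion was precipitated with anti-eIF4A1 from rabbit and the other with rabbit IgG as control, per the labels, and 1 library was sequenced from each (RNA immunoprecipitation followed by sequencing, RIP-seq). No genotype, drug or time distinguishes the groups, and both share the lysis and pre-clearing. With 1 library per group no value has a replicate error, and no p-value is given. A fold is the authors' value at a peak's summit over control, and the reads at the summit were recovered from the deposited fold and p-value. Intervals on reads (exact Poisson, 95%) and on shares (exact Clopper-Pearson, 95%) cover counting error only. The deposited peaks carry no strand, so a gene and an overlapping antisense gene cannot be told apart, and neither labels nor file headers say which library the peak caller used as control.

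eIF4A1 is the RNA helicase of the eIF4F complex, which recruits ribosomes to capped mRNA. MicroRNAs are short RNAs cut from a hairpin in a longer primary transcript, in most cases by Drosha in the nucleus and then by Dicer in the cytoplasm, and they guide Argonaute proteins to complementary sites in mRNA, chiefly through the seed near their 5′ end. Many human microRNA hairpins sit in introns of protein-coding genes, and in the class called mirtrons the hairpin is a whole short intron released by splicing. The primary transcript of such a microRNA is the precursor mRNA of its host. The kit named in the labels is made for mRNA, and the cDNA was primed with random hexamers on fragmented RNA, so these libraries were not designed to hold mature microRNAs.

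Mature microRNAs of genes whose hairpins lay close to a summit are shown first, because these are names for which a reader might take a peak as a microRNA signal. They come from RefSeq (GRCh38.p14), run 5′ to 3′, and have the seed, bases 2 to 8, in capitals.
hsa-miR-22-5p: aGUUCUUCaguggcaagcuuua
hsa-miR-22-3p: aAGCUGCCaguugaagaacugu
hsa-miR-1909-5p: uGAGUGCCggugccugcccug
hsa-miR-1909-3p: cGCAGGGGccgggugcucaccg
hsa-miR-6861-5p: aCUGGGUAgguggggcuccagg
hsa-miR-6861-3p: uGGACCUCuccuccccag
hsa-miR-1281: uCGCCUCCuccucuccc
hsa-miR-6804-5p: uGAGGGUGucagcaggugacg
hsa-miR-6804-3p: cGCACCUGccucucacccacag
hsa-miR-3620-5p: gUGGGCUGggcugggcugggcc
hsa-miR-3620-3p: uCACCCUGcaucccgcacccag
Mature sequences were found for 34 of the 37 genes, 53 sequences in all. Their 53 seeds were all different over bases 2 to 8, so no such seed was shared among these 34 genes. Some differed only in the last base, such as those of hsa-miR-6785-5p and hsa-miR-6799-5p. No sequence was found for MIR548H2, MIR4326 and MIR937, so MIR548H2 could not be compared with MIR548S. Hairpin sequences were found for 29 of the genes. Their GC content had a median of 60.7% and ran from 32.3% in MIR569 to 77.8% in MIR6836, against a median of 52.1% over the 1560 hairpins of the table, and 22 of the 29 lay above that median.

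The closest approach was at MIR22, a conserved microRNA processed from the long noncoding transcript MIR22HG. Its gene spans chromosome 17, 1713903 to 1713987 on the minus strand, and the peak, at 1713820 to 1713839, ended 64 bases from it, with the summit 75 bases downstream. The peak had a fold of 3.97 on 3 reads (interval 0.619 to 8.77) and lay inside MIR22HG. The printed hsa-miR-22 sequences therefore lie outside the peak, although both lie within the span of MIR22HG. As the peak carries no strand, whether its reads came from that transcript cannot be told.

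At MIR1909 (chromosome 19, 1816159 to 1816238, minus strand) the summit stood 99 bases downstream, inside REXO1, which encodes an RNA exonuclease, with a fold of 4.79 on 8 reads. This peak too was close to a hairpin without touching it.

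The 4 remaining genes of the printed set were farther away. The MIR6861 summit was 187 bases downstream of its hairpin (chromosome 12, 112163258 to 112163321, minus strand), inside HECTD4, with a fold of 2.95 on 2 reads. The MIR1281 summit was 593 bases upstream of its hairpin (chromosome 22, 41092513 to 41092566, plus strand), where no gene of the RefSeq table used here spans it, with a fold of 3.93 on 3 reads. The MIR6804 summit was 632 bases downstream of its hairpin (chromosome 19, 55230885 to 55230952, minus strand), inside PPP6R1, a regulatory subunit gene of protein phosphatase 6, with a fold of 5.62 on 6 reads. The MIR3620 summit was 669 bases downstream of its hairpin (chromosome 1, 228097263 to 228097341, plus strand) and that of MIR4690, whose sequences are not printed, 762 bases downstream.

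**Figure D1:**
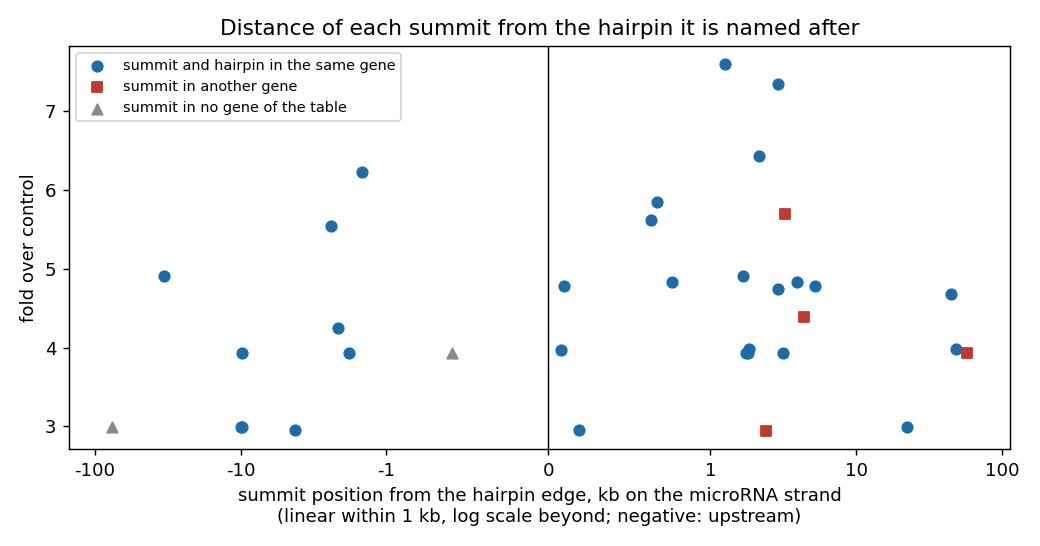
Fold over control (vertical axis) against the distance of each summit from the edge of the hairpin it is named after (horizontal axis, kb on the microRNA strand, linear within 1 kb and logarithmic beyond), for 35 of the peaks. No point sits at 0, 24 lie downstream and 11 upstream, and blue circles mark summits in the same gene as the hairpin.

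Over the 38 peaks with a distance, the summit lay between 75 and 76291 bases from the hairpin, with a median of 2407. It was within 1 kb in 9, within 3 kb in 22, between 3 and 10 kb in 10 and beyond 10 kb in 6. No peak interval overlapped the hairpin of its name, and a count of 0 of 39, taken as at most 3 counts, allows a share of up to 7.69%, and the exact Clopper-Pearson bound is 9.03%. The same held for the whole series: of the 1920 peaks, 0 summits and 0 peak intervals touched any of the 1913 RefSeq microRNA genes. Within 1 kb of some microRNA gene there were 24 peaks, and 14 of them were listed under another gene. The other 10 were the 9 above and the peak listed under MIR6511A1, which is described next.

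The peak listed under MIR6511A1 has no distance from the hairpin of its name because its place is uncertain. The RefSeq gene of that ID lies at 14925937 to 14926003 on chromosome 16, whereas the authors' transcript lies at 16324588 to 16324654, the place of MIR6511A2 in RefSeq. The summit stood 171 bases from the start of the authors' transcript, so it was close to this copy without lying inside it. MIR6511A1 shares a mature sequence with 3 other genes, MIR6511A2, MIR6511A3 and MIR6511A4. MIR6770-1 shares one with MIR6770-2 and MIR6770-3. Both peaks lay in duplicated sequence with PKD1 pseudogenes, on 2 reads (fold 2.99) and 3 reads (fold 3.98), and both assignments are uncertain. MIR24-2 also shares a mature sequence, with MIR24-1, but its own peak lay elsewhere.

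**Figure D2:**
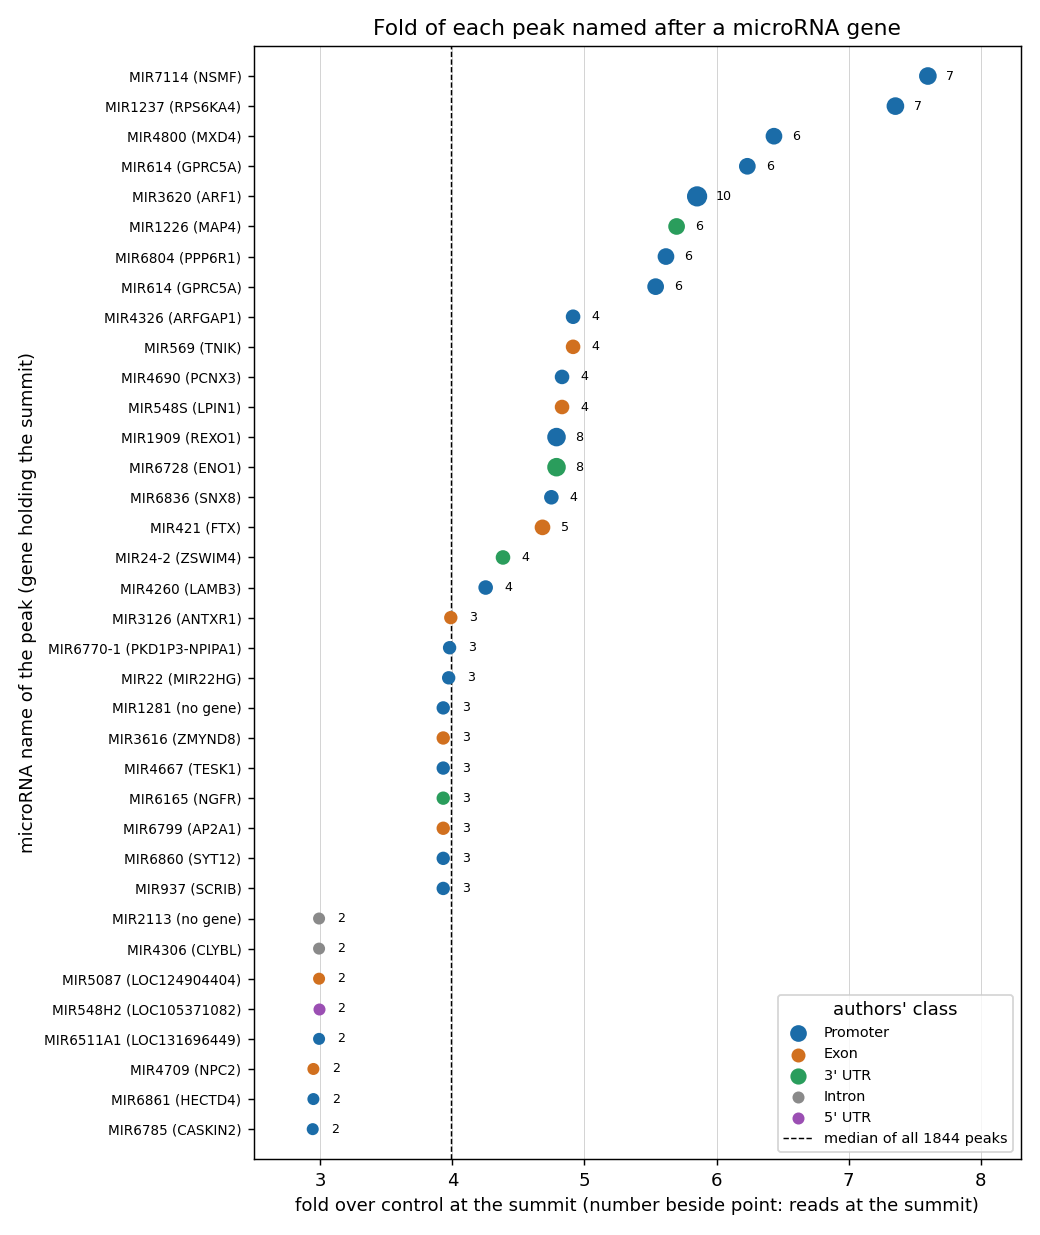
Fold over control of 36 of the peaks (horizontal axis), each named by its microRNA gene with the gene holding the summit in brackets, coloured by the authors' annotation class; the number beside each point is the reads at the summit, and the dashed line is the median over all 1844 peaks (3.99). Folds run from 2.94 to 7.60, and 8 of the plotted peaks stand above 5.

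The folds of the 39 peaks ran from 2.94 to 7.60 with a median of 4.38, against a median of 3.99 over all 1844 peaks, whose highest value was 13.3. A fold of at least 5 was reached by 10 of the 39 (25.6%, interval 13.0 to 42.1), beside a background of 23.1% of all peaks. A −log10 q of at least 5 was reached by 8 (20.5%, interval 9.30 to 36.5), beside 26.6%. At least 5 reads stood at 14 summits (35.9%, interval 21.2 to 52.8), beside 27.4%. Each of these 3 background shares lay inside the interval for the microRNA-named peaks, so at this depth a difference from the other peaks was not detectable. The reads at the summit ran from 2 to 10 with a median of 4, and 18 of the 39 peaks rested on 2 or 3 reads.

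The highest fold, 7.60, was listed under MIR7114, at chromosome 9, 137448762 to 137448783. It rested on 7 reads (interval 2.81 to 14.4) over a background of 0.0528 and had the highest −log10 q of the set, 8.12. The peak lay inside NSMF, which encodes a synaptonuclear signalling protein, 1254 bases downstream of the hairpin. NSMF held a second peak under its own name, with a fold of 5.88 on 5 reads.

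MIR1237 followed with a fold of 7.35 on 7 reads (−log10 q = 6.83, chromosome 11, 64371481 to 64371588). Its hairpin is a known mirtron of RPS6KA4, a stress- and mitogen-activated kinase gene, and the peak lay 2885 bases past it in the same gene. No other peak was found in RPS6KA4, so this gene enters the deposited list only under a microRNA name.

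Both peaks listed under MIR614 lay in GPRC5A, an orphan G protein-coupled receptor gene induced by retinoic acid. Their folds were 6.23 (chromosome 12, 12914353 to 12914501, −log10 q = 4.57) and 5.54 (12913302 to 12913494, −log10 q = 3.10), each on 6 reads (interval 2.20 to 13.1). The summits stood 1471 and 2414 bases upstream of the hairpin. The other peak of the gene, under GPRC5A itself, had a fold of 6.91 on 7 reads. The 3 peaks of GPRC5A differed by 1 read, which is within counting error.

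MIR4800 had a fold of 6.43 on 6 reads (−log10 q = 5.38, chromosome 4, 2247896 to 2247928). The peak lay in MXD4, a gene of the MAX network of transcriptional repressors, 2158 bases downstream of the hairpin. MIR3620 had the most reads, 10 (interval 4.80 to 18.4), with a fold of 5.85 (−log10 q = 3.25, chromosome 1, 228097957 to 228098011) over a background of 0.880. Its host was ARF1, the small GTPase gene of Golgi vesicle coating. The number of reads and the fold therefore ranked these peaks differently.

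MIR1226 had a fold of 5.70 on 6 reads (−log10 q = 3.15, chromosome 3, 47852874 to 47852960). Its hairpin is a known mirtron of the helicase gene DHX30, but the summit, 3247 bases away, lay in the neighbouring MAP4, the gene of a microtubule-associated protein, and not in DHX30. MIR6804, in PPP6R1 as described above, had a −log10 q of 3.15 (chromosome 19, 55230097 to 55230256). PPP6R1 also held a peak under its own name with a fold of 3.93 on 3 reads.

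Folds between 4 and 5 were found at 11 peaks. Among those on 8 reads were MIR1909 in REXO1 and MIR6728 in ENO1, the glycolytic enolase gene; both had a fold of 4.79, a background of 0.880 and a −log10 q of 1.87. The peaks listed under MIR4326 and MIR569 each had a fold of 4.91 on 4 reads. They lay in ARFGAP1, a GTPase-activating protein gene for ARF1, and in TNIK, a kinase gene of the Wnt pathway. With 4 reads at a background of 0.0176 these 2 peaks had a −log10 q of 5.14, above the value at these peaks of 8 reads.

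MIR4690 in PCNX3 and MIR548S in LPIN1, a phosphatidate phosphatase gene of lipid synthesis, each had a fold of 4.83 on 4 reads. MIR6836 in the sorting nexin gene SNX8 had 4.75 on 4 reads, and MIR421 in FTX, a long noncoding RNA gene of the X-inactivation region, had 4.68 on 5 reads. The peak listed under MIR24-2 had 4.38 on 4 reads. It lay in ZSWIM4, while the MIR24-2 hairpin, 4390 bases away, lies in MIR23AHG, the host transcript of the MIR23A cluster. MIR4260, in the laminin gene LAMB3, had 4.25 on 4 reads. Each of these peaks rested on 4 or 5 reads, so their order is within counting error.

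The 18 other peaks had folds from 2.94 to 3.99 on 2 or 3 reads. Those on 3 reads lay in ANTXR1, a receptor gene of anthrax toxin (MIR3126), ZMYND8, a chromatin reader gene (MIR3616), the kinase gene TESK1 (MIR4667), NGFR, the p75 neurotrophin receptor gene (MIR6165), AP2A1, of the clathrin adaptor AP-2 (MIR6799), SYT12, of the synaptotagmin family (MIR6860), and SCRIB, of epithelial polarity (MIR937), beside MIR22, MIR1281 and MIR6770-1. An identical fold of 3.93 was listed at 7 of these 10 peaks, each with 3 reads over a background of 0.0176. Peaks on 2 reads lay in CLYBL (MIR4306), NPC2, of lysosomal cholesterol export (MIR4709), HECTD4 (MIR6861), CASKIN2 (MIR6785), the long noncoding RNA genes LOC124904404 (MIR5087) and LOC105371082 (MIR548H2), and the pseudogene LOC131696449 (MIR6511A1). The last peak on 2 reads, under MIR2113, lay 76291 bases from its hairpin, in no gene of the table. The authors' class puts it in an intron of a transcript of LOC101927314. An interval of 0.242 to 7.22 belongs to 2 reads and one of 0.619 to 8.77 to 3 reads, so these peaks could not be ranked.

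The genes that hold the peaks were mostly protein-coding. Of the 39 summits, 31 lay in 29 protein-coding genes, 4 in long noncoding RNA genes (FTX, MIR22HG, LOC124904404 and LOC105371082), 2 in pseudogenes and 2 in no gene of the table. The summit and the named hairpin lay in the same gene in 32 peaks. They lay in different genes in 5. One of these is MIR6511A1, whose place is uncertain, as given above. The other 4 were MIR1226 and MIR24-2, described above, MIR6785 and MIR3616. The MIR6785 hairpin lies in TMEM94 and its summit in CASKIN2, and the MIR3616 hairpin lies in EYA2 and its summit in ZMYND8, 57412 bases away. For the 26 peaks in the same gene whose strand was known, the hairpin was on the strand of that gene in 24. The 2 on the opposite strand were MIR5087 and MIR548H2. Among the 24, the summit was downstream of the hairpin in 18 and upstream in 6.

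Many host genes were absent from the list of named genes, which the choice of hosts by a microRNA-named peak largely set. Of all 35 hosts, coding or not, 25 held only 1 peak, so a peak under their own name was impossible. Among the 10 hosts with 2 or more peaks, 7 had a peak under their own name. Of the 29 protein-coding hosts, 22 had no peak listed under their own symbol, ENO1, ARF1, RPS6KA4, MXD4 and MAP4 among them. Among the other 7 were CASKIN2, GPRC5A, HECTD4, NSMF, PCNX3 and PPP6R1. In the authors' deposited table a further name column gave the microRNA symbol for 24 of the 39 peaks, only another name for 4 (MIR22HG, KIAA0195, SNX8 and NSMF) and no name for 11. In that column REXO1, ARF1 and MXD4 stood beside the microRNA name. For 9 peaks the authors' exon or intron class gave a gene ID, and in 8 of them it was the gene that holds the summit; the other was MIR2113.

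**Figure D3:**
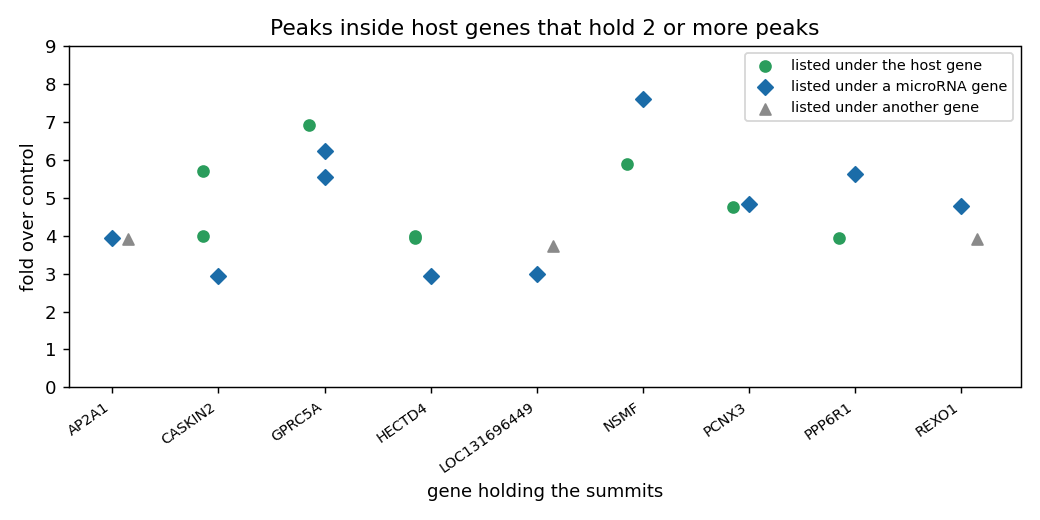
Fold over control of every peak inside 9 host genes that held 2 or more peaks, by the name under which each peak was listed. In GPRC5A 2 of 3 peaks carried a microRNA name, and in HECTD4 and CASKIN2 1 of 3.

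In hosts with more than 1 peak, the microRNA-named peak was not set apart from the rest in one direction. It had the higher fold in NSMF (7.60 against 5.88), in PPP6R1 (5.62 against 3.93) and in REXO1 (4.79 against 3.90, the latter listed under LOC100288123). By −log10 q this order held in NSMF (8.12 against 6.69), but both PPP6R1 peaks had 3.15. In REXO1 it was reversed, with 1.87 for the microRNA-named peak against 3.07. The microRNA-named peak had the lower fold in 4 other host genes described next. It had the lower fold in CASKIN2, with 2.94 against 3.99 and 5.70, in HECTD4, with 2.95 against 3.93 and 3.99, and in both peaks of GPRC5A, as given above. It was also lower in the pseudogene LOC131696449, with 2.99 on 2 reads (MIR6511A1, of uncertain place) against 3.74 on 3 reads. In PCNX3 the folds were 4.83 and 4.75, both on 4 reads, and in AP2A1 3.93 and 3.90, both on 3 reads. Across these genes the differences amounted to a few reads.

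By the authors' classes, 23 of the 39 peaks (59.0%, interval 42.1 to 74.4) were in the promoter class, which covers 3 kb around a transcript start, 9 in exons, 4 in 3′ UTRs, 2 in introns and 1 in a 5′ UTR. Over all 1844 peaks the promoter share was 59.6%. Within 1 kb of a start lay 10 of the 39 (25.6%, interval 13.0 to 42.1), against 40.6% of the 1844, which is inside the interval. A difference was not tested. ChIPseeker names a peak after the nearest transcript start, so name and class both follow from that distance and the comparison is a description. For microRNA-named peaks the start in question is that of the hairpin.

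**Figure D4:**
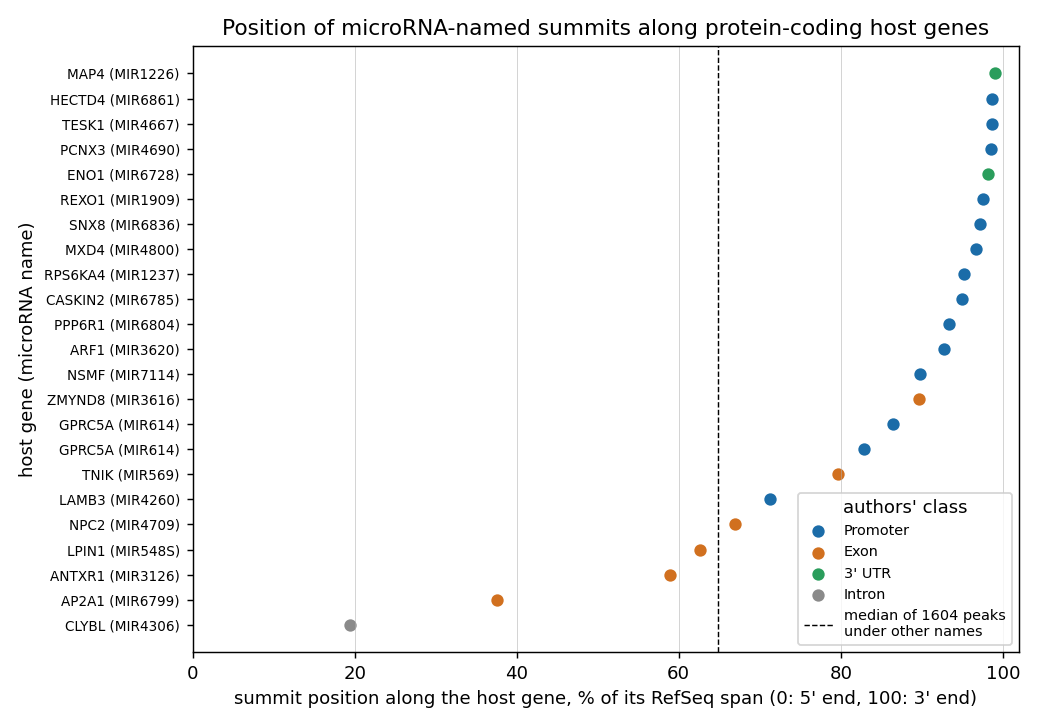
Position of 23 microRNA-named summits along their protein-coding host genes (0% the 5′ end, 100% the 3′ end of the RefSeq span), coloured by the authors' class; the dashed line is the median of 1604 peaks under other names (64.9%). The blue promoter-class points lie between 71.3% and 98.7%, and 17 of the 23 points lie at 75% or beyond.

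Measured against the host gene, the microRNA-named peaks lay toward the 3′ end. Of the 25 peaks in protein-coding hosts of known strand, 0 were within 3 kb of the host's 5′ end, against 20.8% of 1604 peaks under other names, and 13 (52.0%) were within 3 kb of its 3′ end, against 25.6%. Their median position was 89.8% of the way along the gene, against 64.9%, and their median distance from the 3′ end was 2876 bases, against 10733. A peak near the host's own start would in general have been listed under the host, and so counted among the other names. The 0 near the 5′ end was therefore largely set by the naming. The same rule shifts the median position and the distance from the 3′ end, so these values are a description and no test is given.

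The promoter-class peaks showed this most clearly. All 15 with a host of known strand lay at least 4707 bases from the 5′ end of the host, and 11 (73.3%) lay within 3 kb of its 3′ end. Of 990 promoter-class peaks under other names, 33.6% lay within 3 kb of the 5′ end and 23.2% within 3 kb of the 3′ end. The lack of peaks near the host's 5′ end again follows largely from the naming. The TESK1 summit stood 64 bases from the 3′ end of that gene, those in PCNX3 and MXD4 308 and 487 bases, those in RPS6KA4 and CASKIN2 627 and 767 bases and that in REXO1 812 bases. The ENO1 peak, in the 3′ UTR class, stood 325 bases from the end. For these peaks the word promoter refers to the start of the hairpin and not to the start of the host gene. The exceptions toward the 5′ side were CLYBL, where the summit lay at 19.4% of the gene, and AP2A1, at 37.6%.

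Peaks were also set beside those named after protein-coding genes (1655 peaks) and after long noncoding RNA genes (103 peaks). The summit lay inside the named gene in 85.3% of the former and 52.4% of the latter, and in 0 of the 39 microRNA-named peaks. The named microRNA genes span only 54 to 109 bases, so the shares refer to genes of very unequal length. The median fold was 3.99 for protein-coding names and 3.93 for long noncoding names, against 4.38 here, and the share on 2 reads was 16.9% and 32.0%, against 20.5%. The median peak width was 28 bases, against 29 over all peaks. By chromosome, 6 of the 39 lay on chromosome 19 (15.4%), which held 11.3% of all peaks.

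Few of the microRNA genes that could have been named were. Of the 1913 RefSeq microRNA genes, 1524 lie inside another gene, and 153 lie in a gene that held at least 1 peak. Only 32 of these 153 were used to name a peak, and the other peaks in such genes were listed under other starts. None of 44 microRNA genes often studied in prostate cancer, MIR21, MIR221, MIR141 and MIRLET7A1 among them, was named, beside 1.93% of all RefSeq microRNA genes, a share at which a list of this length need not hold any. Of 87 host transcripts with a MIR name and the ending HG, 3 held a summit. Only 1 of the 87 (1.15%) had a peak listed under its own name, beside 6.83% of 20056 protein-coding genes. The share of all genes that held a summit under any name was not taken, and no difference was tested. MIR4435-2HG had a fold of 5.32 on 9 reads, MIR3681HG held a peak listed under TRIB2 with a fold of 3.99 on 3 reads, and MIR22HG held the MIR22 peak.

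Among 32 genes of microRNA processing and action, 5 had a peak (15.6%), beside 6.83% of 20056 protein-coding genes. They were TNRC6B and TNRC6C, scaffold proteins that join Argonaute to mRNA decay enzymes, MOV10, an RNA helicase bound to Argonaute, KHSRP, which promotes processing of some precursors, and SND1, a nuclease of the silencing complex. TNRC6B had 2 peaks, with folds of 4.25 on 4 reads and 2.99 on 2 reads. MOV10 had 3.99 and KHSRP 3.92, each on 3 reads, and SND1 2.98 and TNRC6C 2.95, each on 2 reads. None of them reached a fold of 5, and each peak rested on 2 to 4 reads. Whether the share of these genes with a peak differs from that of all protein-coding genes was not tested. No peak was listed under the processing enzymes DROSHA, DGCR8 and DICER1 or under AGO1 to AGO4, the Argonaute genes.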

How the data were processed

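RIP-seq of DU145 cells was analysed from 2 deposited tables, for 1 eIF4A1 and 1 IgG sample, grouped by the antibody label. MACS2, ChIPseeker, STAR, BWA, Salmon, Picard and DESeq2, and the builds hg19, GRCh38 and hg38, are named per the submitters' processing notes, without versions or roles. The peak track was deposited for the IgG sample, but its peaks carry the name of the eIF4A1 library. In narrowPeak order it holds the authors' score (in all 1920 peaks, 10 times −log10 q rounded down), the fold over control as a ratio, and −log10 p and −log10 q. The annotated table deposited by the authors has 2051 rows for 1919 peaks and gives each summit, its −log10 q, class, distance from the nearest start and gene ID; all 1919 summits equal those of the track.

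The 2 tables were joined on the peak name and gene symbols taken from RefSeq (GRCh38.p14) through the gene ID (found for 1918 peaks). Coordinates are 1-based on hg38; the authors' start of the microRNA transcript equalled the RefSeq start in 37 of 39 peaks, MIR6511A1 being 1 of the others. The host is the RefSeq gene spanning the summit, protein-coding genes first. Strands came from the RefSeq promoter table or the authors' table. Reads and background at a summit were solved from fold = (reads + 1)/(background + 1) and the p-value, taken as the Poisson chance of exceeding that read number; all 1920 solutions lay within 0.01 of a whole number (largest distance 0.00046), and 99.8% of 497 simulated peaks were recovered. Depth rests on this formula, as neither table holds counts or library totals. Python 3.11.15, pandas 2.3.3 and SciPy 1.17.1 were used. With 1 library per group no test was run. Full values are given, by rule, for the 10 highest folds and for microRNA genes with 2 peaks, mature sequences for the nearest genes within 1 kb up to 12 sequences, and every list member with a peak is named. Some peaks that the rule names are counted in the totals but not reported here. The members and lists were chosen with earlier results of these data known.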

Additional observations from a re-analysis of the deposited data

Results flagged for a closer look

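Besides the 39 peaks, 4 peaks listed under the microRNA genes MIR1263, MIR4436A, MIR548AG1 and MIR6130 were called distal intergenic and left out of every comparison. They belong to data that were not used, and each had a fold of 2.99 over control on only 2 reads, in a peak of 20 bases. Their summits lay from 51010 to 870699 bases from the start of the named gene. Only that of MIR1263 lay inside a gene of the table, the long noncoding RNA LOC102724419.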

How the results depend on the processing

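From 39 peaks under 37 names, 8 under 7 names had a −log10 q of at least 5, 10 under 8 names a fold of at least 5, and 14 under 12 names at least 5 reads. All 8, 10 and 14 lay in another gene, against 37 of 39. The promoter share of 59.0% was 80.0% among the 10 peaks with a fold of at least 5. These are part of the 39 and too few to tell whether peaks of higher fold are more often in that class. The number of microRNA pathway genes with a peak went from 5 to 1 at the stricter q, and to 0 both at a fold of at least 5 and with at least 5 reads. Fewer peaks entered these settings by construction. A summit within 1 kb of the named hairpin was found in 9 peaks, against 0 inside it. A share was taken to have moved outside its 95% interval, and a count or the median fold when it changed by over 1.5 times. By that measure the other values stayed, with distal intergenic peaks kept and with placed chromosomes only among the settings. The median fold of 4.38 was among them, yet it rose to 6.17 at the stricter q and 5.77 with at least 5 reads. At a fold of at least 5 it was 6.06, a rise that the cut-off itself sets. Depth limits the order of the peaks, since 18 of 39 rested on 2 or 3 reads. Leaving out a replicate was not run, as each group is a single library. No paired analysis was possible because only 1 library was made with each antibody.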
